A study of Homo sapiens with 12 samples.

Results

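The 10 genes described here encode amino acid transporters of the cell surface: SLC7A11, SLC3A2, SLC7A5, SLC7A1, SLC7A6, SLC1A4, SLC1A5, SLC38A1, SLC38A2 and SLC6A9. They were found by gene symbol among the 58676 genes of the deposited expression table, and all 10 had a mean above the filter of 1 FPKM (a read count divided by gene length and by the reads assigned to genes in that library). RNA was sequenced from A549 cells, a long-established line from a human lung carcinoma. There was a control line, and NFE2L1 was knocked out in 2 further lines, KO1 and KO2. NFE2L1 encodes a transcription factor that raises proteasome genes when the proteasome is inhibited. Each line received vehicle (DMSO) or bortezomib, a proteasome inhibitor, at 200 nM over 4 h. Each of the resulting 6 groups had 2 libraries. All lines grew in the same serum-containing medium, and the labels name no allele and do not say whether a knockout line is 1 clone or a pool. In the text, the first value of a group is its library with the suffix R1 (knockout lines) or no suffix (control line), and the second is its R2 library.

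Amino acid transporters either carry amino acids down or against their gradients with sodium, or exchange one amino acid for another. SLC3A2 is a heavy chain with no transport activity of its own. It brings light chains to the membrane, among them SLC7A5 (large neutral amino acids such as leucine), SLC7A11 (cystine in, glutamate out) and SLC7A6 (cationic amino acids against neutral ones). SLC7A1 carries arginine and lysine without a heavy chain. SLC1A4 and SLC1A5 exchange small neutral amino acids, and SLC1A5 is known for glutamine. SLC38A1 and SLC38A2 take up neutral amino acids with sodium, and SLC6A9 takes up glycine. Many of these genes are known targets of ATF4, the factor made when amino acids run short or proteins misfold, and SLC7A11 is also a known target of NFE2L2, which is constitutively active in A549.

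The following RefSeq promoter windows of GRCh38.p14 are shown because they belong to genes on which the results turn, and because they differ in what they hold. Each covers the 250 bases before an annotated start, read on the gene's strand. Capitals mark a match to TGACNNNGC, the core of the antioxidant response element bound by NFE2L1 and NFE2L2, or to TGATGNAAN, the composite site bound by ATF4 with C/EBP factors. The SLC7A1 window is chr13:29595689-29595938 on the minus strand, the SLC1A4 window chr2:64988229-64988478 on the plus strand, the SLC3A2 window chr11:62881449-62881698 on the plus strand and the SLC1A5 window chr19:46784815-46785064 on the minus strand. SLC1A4, SLC3A2 and SLC1A5 have other annotated starts. For SLC3A2 and SLC1A5 the windows shown are those of a start inside the gene as the deposited table places it, and each holds a match. The other SLC3A2 windows and the SLC1A5 window at chr19:46788595-46788844 held no match to either motif.
SLC7A1: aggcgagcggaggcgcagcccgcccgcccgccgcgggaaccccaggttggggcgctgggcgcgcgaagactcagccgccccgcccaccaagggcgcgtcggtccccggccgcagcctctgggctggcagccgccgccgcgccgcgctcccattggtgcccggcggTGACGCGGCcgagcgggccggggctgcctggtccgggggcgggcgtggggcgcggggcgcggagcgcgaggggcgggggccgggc
SLC1A4: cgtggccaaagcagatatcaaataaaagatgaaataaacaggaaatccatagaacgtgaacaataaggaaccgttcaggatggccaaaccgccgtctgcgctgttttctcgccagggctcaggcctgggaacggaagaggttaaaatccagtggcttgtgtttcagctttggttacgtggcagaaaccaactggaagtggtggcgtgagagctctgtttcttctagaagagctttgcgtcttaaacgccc
SLC3A2: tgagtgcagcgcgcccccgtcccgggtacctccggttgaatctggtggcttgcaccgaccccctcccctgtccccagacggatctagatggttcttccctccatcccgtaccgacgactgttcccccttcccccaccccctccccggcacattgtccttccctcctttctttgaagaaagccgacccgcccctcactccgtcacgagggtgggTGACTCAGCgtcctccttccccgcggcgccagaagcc
SLC1A5: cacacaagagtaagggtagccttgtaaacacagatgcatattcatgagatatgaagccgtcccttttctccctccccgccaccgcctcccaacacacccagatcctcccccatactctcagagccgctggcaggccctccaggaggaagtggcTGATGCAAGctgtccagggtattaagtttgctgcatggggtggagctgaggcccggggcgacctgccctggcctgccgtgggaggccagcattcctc

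The table of promoters held 15 windows for 9 members, and SLC7A11 was not among them. Both strands were searched. TGACNNNGC was in 4 of the 15 windows, against 10.9% of all 35116 windows of that length. The 4 belong to SLC3A2 (TGACTCAGC, 37 bases before the start), SLC7A1 (TGACGCGGC, 85 bases before), SLC7A6 (TGACGAGGC and TGACGTGGC) and SLC1A5 (another of its starts, on the opposite strand). TGATGNAAN was in 1 of the 15, against 3.13% of all windows, and this was the SLC1A5 window shown (TGATGCAAG, 97 bases before the start). Neither SLC1A4 window held either motif. These matches describe letters in a window and were not compared with binding.

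The libraries held 13211608 to 23819258 reads assigned to genes, and each member had at least 353 reads in every library. In the knockout lines NFE2L1 was at 9.82% to 25.6% of the paired control library in vehicle and at 18.9% to 33.7% with bortezomib. Its transcript was therefore reduced but not absent. The 6 R2 libraries stood apart from their partners: mitochondrial genes took 12.3% to 19.3% of their reads, against 5.44% to 6.80% in the other 6. Of 5 epithelial markers the keratins KRT7, KRT8 and KRT18 were at 111.5 FPKM or more in every library, while EPCAM (1.25 to 10.6 FPKM) and CDH1 (1.42 to 9.53 FPKM) were low. Of 4 genes known to be high in A549, NQO1, AKR1B10 and ALDH1A1 were at 99.3 FPKM or more and AKR1C1 at 6.23 to 54.3, and CDKN2A, which A549 has lost, was listed at 0 in all 12. With a replicate term for the title suffix in limma (the replicate block), 4 of these 9 markers of the line itself were called in KO1 against the control line in vehicle, with KRT8 (log2 change 0.96) and CDH1 (1.14) higher and AKR1C1 (-1.46) and ALDH1A1 (-0.86) lower. In KO2 3 were called, all higher: EPCAM (1.17), KRT8 (1.75) and KRT18 (1.59). In KO1 against KO2 6 were called, all lower. With bortezomib EPCAM rose in all 3 lines (1.23, 0.89 and 0.66), KRT7 rose in KO1 and KO2, CDH1 fell in KO1 and AKR1B10 in control cells. None of the 9 was called without the block in any contrast, and the part of these differences in the members' results was not tested. Of 7 markers of other cell types, 6 were at most 0.408 FPKM, and COL1A1, a collagen gene of fibroblasts, was the exception. The summed level of these 7 ran from 1.59 to 5.57 FPKM in vehicle and from 6.12 to 23.7 FPKM with bortezomib, nearly all of it COL1A1 (1.42 to 5.18 and 6.10 to 23.3 FPKM). Its part in the bortezomib results was not tested.

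All 10 members were higher in the R2 library than in its partner in all 6 groups, which is 60 of 60 comparisons, by 1.17-fold to 2.82-fold. Of all 12194 genes tested, 25.2% were higher in R2 in all 6 groups, and the share was 25.1% among the 8109 genes at least as long as the shortest member. The replicate difference was therefore as large as many of the differences between groups. For this reason the comparisons were fitted with limma both without a replicate term, the main model, and with the suffix as a replicate block. Without the block no member passed an adjusted p of 0.05 in any contrast, and an unadjusted p under 0.05 was reached by 1 member in each line for bortezomib (SLC7A1) and by none in the contrasts of lines.

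**Figure D1:**
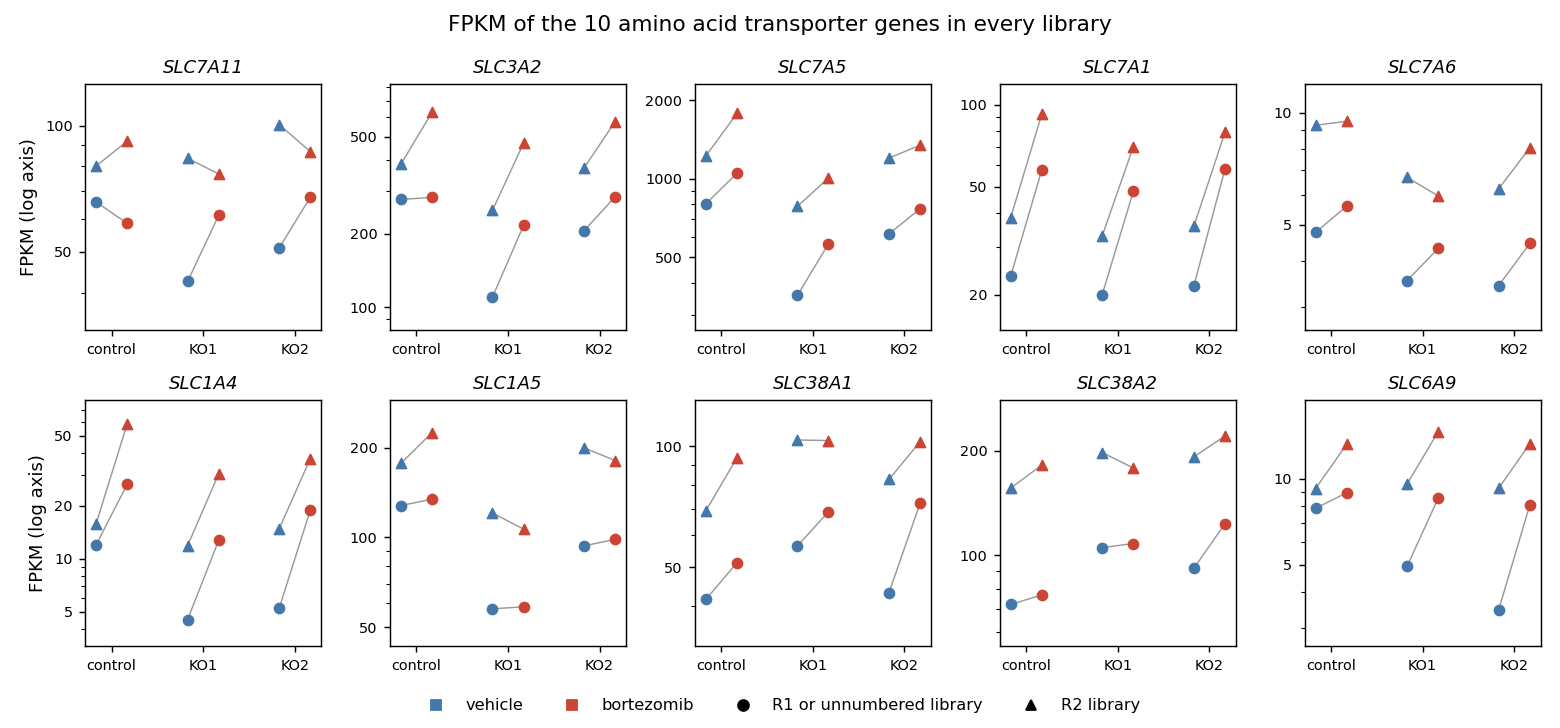
FPKM (log axis) of each of the 10 genes in the control line, KO1 and KO2, with vehicle in blue and bortezomib in red. Circles are the R1 or unnumbered libraries and triangles the R2 libraries, and grey lines join vehicle and bortezomib of a suffix. In every gene each triangle is above the circle of its group, and SLC7A1 and SLC1A4 have steep lines in all 3 lines of cells.

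In control cells with vehicle, SLC7A5 had the highest level per length at 1011 ± 297 FPKM (SD, n = 2) and the heavy chain SLC3A2 came next at 331.3 ± 77.1 FPKM. SLC1A5 (152.6 ± 35.0), SLC38A2 (114 ± 59.5), SLC7A11 (73.0 ± 10.2) and SLC38A1 (55.3 ± 19.4 FPKM) followed, and each overlapped its neighbour in this order. SLC7A1 (30.9 ± 10.6), SLC1A4 (13.9 ± 2.69), SLC6A9 (8.56 ± 0.960) and SLC7A6 (7.01 ± 3.18 FPKM) were lowest, and only SLC6A9 and SLC7A6 overlapped among these. Within each of the 2 control vehicle libraries the order from SLC7A5 down to SLC1A4 was the same, and only SLC6A9 and SLC7A6 changed places. SLC7A5 ranked first and SLC3A2 second among the 10 in all 12 libraries.

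Bortezomib was followed by higher transcript levels of part of the family, and the largest differences were those of SLC7A1 and SLC1A4. With the replicate block, limma called 3 of the 10 members in control cells, 5 in KO1 and 4 in KO2, all of them higher. Among all 12194 genes tested, 16.1%, 13.9% and 12.7% were called higher in the same way (32.4%, 27.7% and 27% in either direction). Without the block the shares of all genes called in either direction were 0.467%, 0.238% and 0.32%. The members had a median log2 change of 0.34 in control cells, 0.35 in KO1 cells and 0.41 in KO2 cells, against a median of -0.01, 0.0048 and -0.02 for all genes tested. SLC7A1 and SLC1A4 were the members called in all 3 lines.

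SLC7A1, the arginine and lysine carrier (chromosome 13, 29509410 to 29595688, minus strand), had 23.4 and 38.4 FPKM in control cells with vehicle and 57.6 and 92.5 with bortezomib. In KO1 it went from 20 and 32.9 to 48.1 and 70.1 FPKM. In KO2 it went from 21.5 and 35.7 to 57.9 and 79.1 FPKM. No vehicle library of any line reached the lowest bortezomib library, since the highest vehicle value was 38.4 and the lowest bortezomib value 48.1 FPKM. Within pairs of the same suffix the ratio was 2.13-fold to 2.69-fold. The log2 change was 1.26 ± 0.14 (SE) in control cells, 1.15 in KO1 and 1.26 in KO2, with adjusted p in limma with the block of 0.00038, 0.00074 and 0.00044. Without the block the estimates are the same and the adjusted p are 0.320, 0.484 and 0.401. Of all genes tested, 1.96% had a larger change in the control line.

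SLC1A4, the exchanger of alanine, serine, cysteine and threonine (chromosome 2, 64988477 to 65023865, plus strand), was at 11.97 and 15.8 FPKM in control cells with vehicle and at 26.5 and 58.3 with bortezomib. In KO1 it was at 4.52 and 11.9 FPKM in vehicle and at 12.8 and 30.4 with bortezomib. In KO2 the values were 5.24 and 14.8 FPKM in vehicle and 18.9 and 37.1 with bortezomib. The groups did not overlap within any line, and the ratio within pairs was 2.21-fold to 3.70-fold. It had the largest bortezomib difference of the 10 in every line, with log2 changes of 1.45, 1.30 and 1.47 (SE 0.19 each with the block). Adjusted p with the block was 0.00077 in control cells, 0.00172 in KO1 and 0.00088 in KO2, and without it 0.415, 0.598 and 0.522. SLC7A1 and SLC1A4 were the only 2 of the 10 whose vehicle and bortezomib libraries did not overlap, in each line. Among all genes tested 16.9% were higher without overlap in control cells, 12.6% in KO1 cells and 15.8% in KO2 cells. A count of 2 of the 10 is near these shares, so it does not set the members apart from genes at large.

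SLC3A2, the heavy chain (chromosome 11, 62856102 to 62888875, plus strand), was at 276.8 and 385.9 FPKM in control cells with vehicle and at 282.2 and 629.7 with bortezomib. The KO1 values were 110.4 and 249.9 FPKM in vehicle and 216.9 and 470.9 with bortezomib. In KO2 it was at 206.1 and 372.3 FPKM in vehicle and at 283.9 and 576.9 with bortezomib. It was higher with bortezomib in all 6 pairs, but the control pair without a suffix differed by 1.02-fold only. The log2 change was 0.94 ± 0.18 (SE) in KO1, called with the block (adjusted p 0.00634 in limma), 0.55 in KO2 (adjusted p 0.0551) and 0.37 in control cells (0.156). Without the block the adjusted p ran from 0.792 to 0.941. With the block but no filter on low values, SLC3A2 was not called in KO1 (adjusted p 0.0611 in limma). The KO1 call was lost without the R2 bortezomib library of KO1 (adjusted p 0.0633).

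SLC7A5, the leucine carrier that pairs with SLC3A2 (chromosome 16, 87830023 to 87869488, minus strand), was at 800.9 and 1221 FPKM in control cells with vehicle and at 1049 and 1778 with bortezomib. KO1 had 357.1 and 783.5 FPKM in vehicle and 563.3 and 1006 with bortezomib. In KO2 it was at 614.7 and 1199 FPKM in vehicle and at 767.1 and 1344 with bortezomib. All 6 pairs were higher with bortezomib, by 1.12-fold to 1.58-fold, while the groups overlapped in every line. The log2 change was 0.47 in control cells (adjusted p 0.0401 with the block) and 0.51 in KO1 (0.0329), both called, and 0.24 in KO2 (0.259), which was not. Without the block the adjusted p was 0.884 to 0.988. Leaving out any of 10 of the 12 libraries, with the block kept, ended the call in control cells (adjusted p of 0.0577 to 0.237), and leaving out any KO1 library or either KO2 vehicle library ended that in KO1 (0.0509 to 0.211). Of 7 other alternatives, 4 ended the call in control cells and 3 that in KO1.

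The cystine exchanger SLC7A11 (chromosome 4, 138164097 to 138242349, minus strand) was at 65.8 and 80.2 FPKM in control cells with vehicle and at 58.5 and 91.9 with bortezomib. In KO1 cells the level was 42.5 and 83.7 FPKM in vehicle and 61.2 and 76.7 with bortezomib. In KO2 it was at 51.1 and 100.7 FPKM in vehicle and at 67.5 and 86.8 with bortezomib. It was higher with bortezomib in 3 of 6 pairs and lower in the other 3, and the 2 pairs of each line went opposite ways. Its log2 changes were 0.01, 0.20 and 0.09 (SE 0.20 each with the block), none of them called, with adjusted p of 0.508 to 0.967 with the block and 0.979 to 0.999 without it.

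SLC6A9, the glycine carrier, was at 7.88 and 9.24 FPKM in control cells with vehicle and at 8.93 and 13.2 with bortezomib. In KO1 it was at 4.93 and 9.60 FPKM in vehicle and at 8.55 and 14.6 with bortezomib. In KO2 it was at 3.46 and 9.26 FPKM in vehicle and at 8.09 and 13.3 with bortezomib. It was higher in all 6 pairs. With the block it rose in KO1 (log2 change 0.62, adjusted p 0.0222) and KO2 (0.75, adjusted p 0.0110) and was not called in control cells (0.32, adjusted p 0.169). Without the block the adjusted p was 0.752 to 0.897. With the block but no filter on low values, neither call was kept (adjusted p in limma 0.0865 in KO1 and 0.0553 in KO2). With the block kept, the KO1 call was lost without any 1 of the 4 KO1 libraries (0.0702 to 0.167), and the KO2 call without either R1 library of KO2 (0.136 and 0.0876). Its span overlaps CCDC24 on the other strand over 5029 bases, and CCDC24 reached 3.74 FPKM. The strand setting of the count is not given in the sources used here, so reads of this pair may not have been told apart.

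SLC38A1, a sodium-coupled carrier of neutral amino acids, was at 51.3 to 103.3 FPKM with bortezomib over the 3 lines, against 41.6 to 103.6 in vehicle. It was called with the block in KO2 (log2 change 0.52, adjusted p 0.0383) and not in control cells (0.37) or KO1 (0.14). With the block but no filter on low values, SLC38A1 was not called in KO2 (adjusted p 0.0880 in limma). The KO2 call was lost without any 1 of the KO2 libraries or either KO1 bortezomib library (adjusted p of 0.0656 to 0.304). SLC38A2, its close relative, had log2 changes of 0.16, -0.05 and 0.31, and SLC7A6 of 0.11, 0.04 and 0.31. SLC1A5, the glutamine exchanger, had log2 changes of 0.21 in control cells, -0.08 in KO1 and -0.04 in KO2. None of these last 3 was called in any line.

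**Figure D2:**
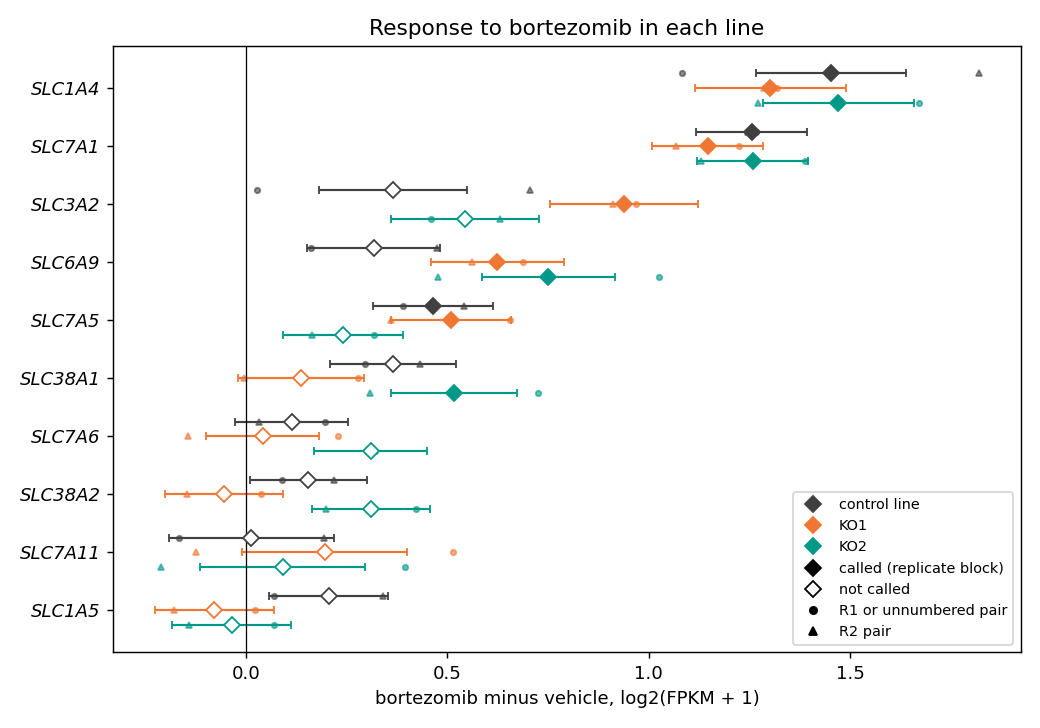
Bortezomib minus vehicle in log2(FPKM + 1) for each gene (rows) in the control line (grey), KO1 (orange) and KO2 (green). Diamonds are limma estimates with the replicate block, filled where the adjusted p was under 0.05, and bars are their SE. Small circles and triangles are the differences within the first and the R2 pair, also in log2(FPKM + 1). SLC1A4 and SLC7A1 lie between 1.15 and 1.47 in all 3 lines, while the diamonds of SLC7A11 and SLC1A5 lie between -0.08 and 0.21.

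Against the control line in vehicle, the members with separated libraries were SLC7A5, SLC3A2, SLC1A5 and SLC1A4, in KO1 only. In KO1 these 4 of the 10 members were below the control line with no overlap of libraries, against 7.03% of all genes tested. SLC7A5 was at 44.6% and 64.2% of the paired control library, SLC3A2 at 39.9% and 64.8%, SLC1A5 at 45.0% and 68.1% and SLC1A4 at 37.7% and 75.3%. In KO2 the same 4 genes were at 76.8% and 98.2%, 74.5% and 96.5%, 73.2% and 112.7%, and 43.8% and 93.7%, and the libraries overlapped for each.

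In that comparison the block by suffix gives the unnumbered control libraries a level of their own, so the KO1 and KO2 differences from the control line rest mainly on R2 libraries. With this block limma called 1 member in KO1 against the control line in vehicle, SLC7A5 (log2 change -0.78 ± 0.17 SE, adjusted p 0.0348), against 2.85% of all genes called lower. SLC3A2 (-0.86, adjusted p 0.0511), SLC1A5 (-0.66, 0.0578) and SLC1A4 (-0.59, 0.159) were not called. Some other settings with a block called more members in this contrast, and these are given with the processing results below. Leaving out any 1 of the 12 libraries ended the SLC7A5 call (adjusted p of 0.0586 to 0.244), as did 3 of 7 other alternatives. Without the block the 4 log2 changes were -0.90, -0.97, -0.84 and -0.81, none called (adjusted p 1), and 0.213% of all genes were called in either direction, against 5.95% with the block. In KO2 no member was called with or without the block (1 had an unadjusted p under 0.05 with it), while 4.91% and 0.23% of all genes were.

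With bortezomib, KO1 was also lower for SLC7A5 and SLC1A5, in a comparison added after the values were seen. SLC1A5 was at 43.5% and 47.4% and SLC7A5 at 53.7% and 56.6% of the paired control library, and these were the 2 members of 10 that did not overlap (11.9% of all genes were lower without overlap). Both fell with the block, SLC1A5 by 0.95 ± 0.17 (SE, adjusted p 0.0139 in limma) and SLC7A5 by 0.73 ± 0.17 on the log2 scale (adjusted p 0.0383), and 3.92% of all genes were called lower. The SLC1A5 call was lost without the R2 bortezomib library of the control line (adjusted p 0.221) or of KO1 (0.200). The SLC7A5 call was lost in 10 of the 12 fits that left out 1 library and in 3 of 7 other alternatives. Without the block neither was called (adjusted p 1). In either direction 7.54% of all genes were called with the block and 0.107% without it. With the block but no filter on low values, the SLC1A5 call was lost as well (adjusted p 0.0526 in limma). SLC1A4 was at 48.1% and 52.2% (log2 change -0.74 with the block, adjusted p 0.0747), and SLC3A2 at 76.9% and 74.8% (-0.29, adjusted p 0.458). In KO2 no member was called, and none had an unadjusted p under 0.05, against 4.81% of all genes with the block and 0.0656% without.

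A direct comparison of KO1 with KO2 in vehicle was also added after the values were seen. With the block SLC7A5 (log2 difference -0.70, adjusted p 0.0427) and SLC1A5 (-0.71, adjusted p 0.0390) were lower in KO1, against 1.59% of all genes called lower and 3% in either direction. SLC3A2 differed by -0.73 (adjusted p 0.0756). Leaving out 1 library ended the SLC7A5 call in 10 of 12 cases and the SLC1A5 call in 8 of 12, and 4 of 7 other alternatives ended each. Among these was the block in which unnumbered libraries share the level of R1 (adjusted p 0.0654 for SLC7A5 and 0.0648 for SLC1A5). Without the block none was called (adjusted p 1), nor were more than 0.0656% of all genes. The NFE2L1 transcript itself was lower in KO1 than in KO2, at 8.45 and 14.8 against 18.6 and 33.6 FPKM in vehicle (log2 difference -1.09, adjusted p 0.00941 with the block and 1 without), and its part in the differences between the 2 lines was not tested.

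SLC38A1 and SLC38A2 had values on the other side. In vehicle SLC38A1 was at 135.8% and 150.1% of the paired control in KO1 and at 103.9% and 119.7% in KO2. SLC38A2 was at 145.9% and 126.7% in KO1 and at 127.2% and 123.1% in KO2. Neither was called in any comparison of a knockout line with the control line, with or without the block. SLC7A11 was at 64.6% and 104.4% in KO1 and at 77.7% and 125.5% in KO2, and SLC7A1 at 85.6% and 85.7% in KO1 and at 92.1% and 92.8% in KO2. SLC7A6 was at 67.5% to 74.3% in both lines (log2 changes of -0.43 and -0.49 with the block, adjusted p 0.170 and 0.142). Its span overlaps SLC7A6OS on the other strand over 17321 bases.

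**Figure D3:**
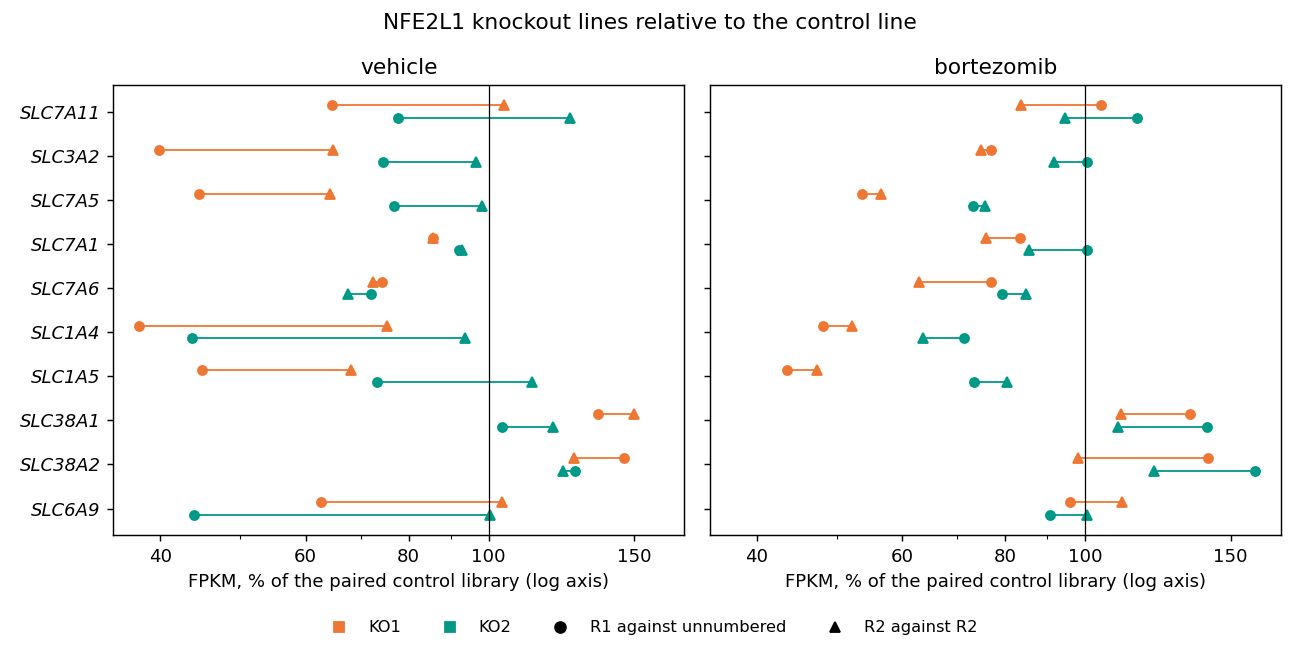
FPKM of each gene in KO1 (orange) and KO2 (green) as a percentage of the control library of the paired suffix (log axis), in vehicle (left) and with bortezomib (right). Circles compare R1 with the unnumbered control library and triangles R2 with R2; the vertical line is 100%. SLC3A2, SLC7A5, SLC1A4 and SLC1A5 of KO1 lie between 37.7% and 75.3% in vehicle, and SLC38A1 and SLC38A2 lie to the right of 100% in both lines there.

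The mean of the 2 knockout lines was compared with the control line as well. No member was called in vehicle or with bortezomib, with or without the suffix block (4 had an unadjusted p under 0.05 with it in each treatment), while 6.18% and 7.66% of all genes were called with it and 0.344% and 0.164% without. The largest differences with the block in bortezomib were those of SLC1A5 (-0.57, adjusted p 0.0597) and SLC1A4 (-0.54, adjusted p 0.139). The interaction asks whether the bortezomib response differed between the knockout lines and the control line. No member and no other gene (0% of 12194) was called for it in limma with or without the block, and no member had an unadjusted p under 0.05 in either fit. Over all genes 115 had such a p without the block and 1305 with it. SLC3A2 had the highest estimate (0.38 ± 0.22 SE, adjusted p 0.604 with the block) and SLC1A5 the lowest (-0.26 ± 0.18, adjusted p 0.665).

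The light chains were set against the heavy chain within each library, on the FPKM scale. The ratio of SLC7A5 to SLC3A2 was 2.89 to 3.23 in the 6 vehicle libraries. FPKM rests on the deposited length of each gene, so these ratios do not count transcripts. With bortezomib KO1 libraries had ratios of 2.60 and 2.14, and KO2 libraries 2.70 and 2.33, all below the vehicle libraries, and 3.72 and 2.82 in control cells, on both sides of them. SLC7A11 was at 0.238 and 0.208 of SLC3A2 in control cells with vehicle, 0.385 and 0.335 in KO1 and 0.248 and 0.270 in KO2. Every bortezomib library was lower than its own vehicle pair for SLC7A11, down to 0.146 in control cells. These ratios are a description and were not tested.

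**Figure D4:**
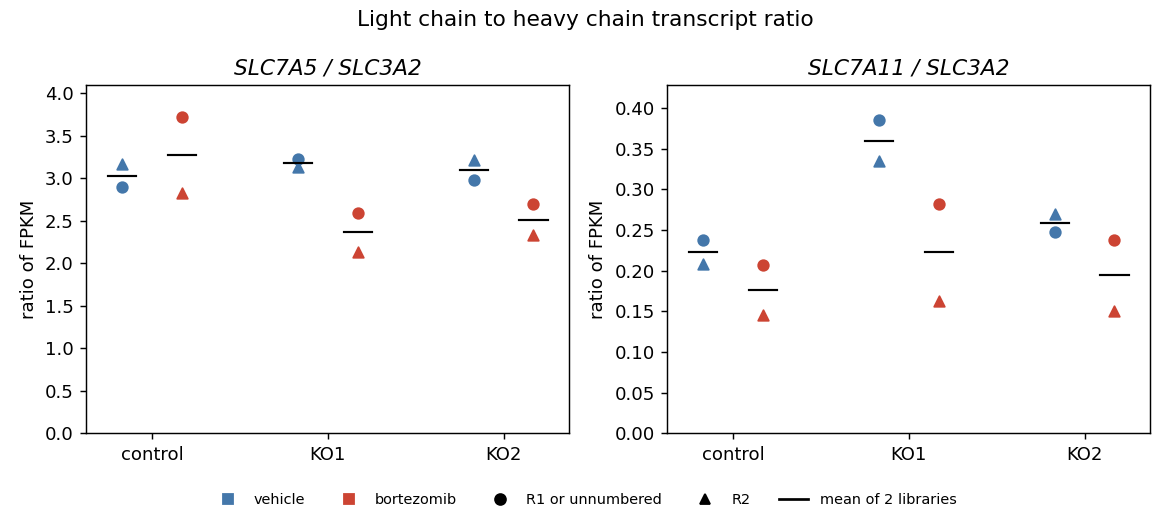
Ratio of the FPKM of SLC7A5 (left) and SLC7A11 (right) to that of the heavy chain SLC3A2 in each library, by line, with vehicle in blue and bortezomib in red. Circles are R1 or unnumbered libraries, triangles R2 libraries and bars the mean of the 2. The SLC7A5 ratio lies between 2.89 and 3.23 in all vehicle libraries and between 2.14 and 2.70 in the bortezomib libraries of KO1 and KO2.

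Likeness between patterns was measured as the root mean square difference of log2(FPKM + 1) over the 12 libraries, each gene centred on its own mean. All members share the replicate difference described above, and it was not removed from these distances. Among the members SLC38A1 and SLC38A2 were closest (0.195), then SLC3A2 and SLC7A5 (0.21) and SLC7A5 and SLC1A5 (0.217), and SLC1A4 and SLC38A2 were farthest apart (0.849). Over all tested genes outside the family, those closest to SLC7A11 were C16orf52 (0.149), KRTCAP3 (0.154) and VPS13A (0.155). MIR22HG (0.217) was closest to SLC3A2, SEL1L3 (0.21) to SLC7A5 and POFUT2 (0.175) to SLC6A9. The nearest member was SLC7A6 for SLC7A11 (0.229) and for SLC6A9 (0.311), both farther than the genes named. SLC3A2 and SLC7A5 were each other's nearest member (0.21).

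Of 41 other amino acid carriers listed, 15 passed the FPKM filter, and 26 did not, the highest of these being SLC7A2 at 0.762 FPKM. With the block SLC43A2 was called higher with bortezomib in all 3 lines and SLC38A7 in control cells and KO1. SLC6A6 and SLC38A10 were called lower in all 3 lines. Of all genes tested, 16.1%, 13.9% and 12.7% were called higher and 16.4%, 13.8% and 14.4% lower. SLC43A1 passed the filter only through the bortezomib libraries (vehicle mean 0.854 FPKM), so its calls in KO1 and KO2 are left out here. Without the block none of the 15 was called for bortezomib in any line, and none had an unadjusted p under 0.05. SLC43A2, a carrier of neutral amino acids, rose in all 3 lines (log2 change 0.47, 0.70 and 0.84). SLC6A6, the taurine carrier, fell in all 3 (-0.85, -0.73 and -0.85), as did SLC38A10 (-0.49, -0.55 and -0.63). None of these 3 was called without the block.

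SLC6A15, a carrier of branched-chain amino acids and proline, was higher in the knockout lines. In control cells it was at 0.0287 and 0 FPKM in vehicle and at 0.0162 and 0.0181 with bortezomib. In KO1 it was at 2.01 and 2.77 FPKM in vehicle and at 2.38 and 3.44 with bortezomib, and in KO2 at 1.31 and 1.34, and 1.73 and 1.90. Every knockout library was above every control library. It passed the filter of 1 FPKM only through the knockout libraries (mean of the control libraries 0.0158 FPKM), so it had to differ, and its values are given as a description with no test. SLC6A17 was at 2.49 and 5.45 FPKM in control cells with vehicle, 1.61 and 1.65 in KO1 and 0.908 and 1.05 in KO2, and fell with the block in both (-1.16 and -1.57, adjusted p 0.0102 and 0.00251). Without the block it was not called (adjusted p 0.950 and 0.380).

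Among 14 regulators and genes of the route from cystine to glutathione, ATF4 rose with bortezomib in all 3 lines with the block (log2 change 0.64, 0.79 and 0.77, adjusted p 0.0157, 0.00736 and 0.00881). It was at 107.3 and 47.7 FPKM in control cells with vehicle and at 146.8 and 86.2 with bortezomib, so it was lower in R2 where the members were higher. NFE2L2 also rose with the block (0.45, 0.67 and 0.55, adjusted p 0.0457, 0.0103 and 0.0242). Without the block neither was called in any line, with adjusted p of 0.786 to 0.833 for ATF4 and 0.813 to 0.896 for NFE2L2. CHAC1, which breaks down glutathione and is a known ATF4 target, was called in all 3 lines without the block (2.35, 2.43 and 2.40, adjusted p 0.0172, 0.0141 and 0.0124). CTH, which makes cysteine, was at 0.469 to 0.846 FPKM in vehicle and at 1.26 to 3.62 with bortezomib. CBS, which acts before it on the same route, was at 0.158 to 1.11 FPKM in vehicle and at 1.35 to 2.21 with bortezomib. Both passed the filter only through the bortezomib libraries (vehicle means of 0.652 and 0.534 FPKM), so they had to differ and are described with no test. BACH1, a repressor at antioxidant response elements, rose with the block in control cells (1.05) and KO2 (0.72). GCLM, a subunit of the enzyme that starts glutathione synthesis, rose with it in KO1 (0.83). The remaining NFE2L1 transcript rose with the block in KO1 (log2 change 1.39) and KO2 (0.76), and NFE2L1 was not called in control cells (0.45). With the block ATF4, NFE2L2 and CHAC1 were called higher in all 3 lines, BACH1 in control cells and KO2, GCLM in KO1, and NFE2L1 in KO1 and KO2. CTH and CBS are left out here, and none of the 14 was called lower. Of all genes tested, 16.1%, 13.9% and 12.7% were called higher in control cells, KO1 and KO2. Without the block 1 of the 14, CHAC1, was called in each line.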

How the data were processed

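The authors deposited FPKM for 58676 genes in 12 libraries of 6 groups of 2, with a gene length for each gene. Per the submitters' processing notes, STAR 2.5, HTSeq 0.6.1, CASAVA, DESeq2 and hg19 were used, with no role or order given. The deposited gene positions, however, are those of GENCODE 29 on GRCh38 for 95.3% of genes and all 10 members, so coordinates here are GRCh38. The strand setting and counting rules are not given in the sources used here. FPKM times length gave whole reads for 100% of values (tolerance 0.05 read), which gives the depth.

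From these FPKM, limma 3.58.1 in R 4.3.3 was fitted on log2(FPKM + 1) with 1 mean per group over all 12 libraries, a variance trend and no replicate term. The 12194 genes whose FPKM averaged 1 or more were tested, with Benjamini-Hochberg adjustment over all of them and a threshold of 0.05. The pseudocount of 1 understates the change of low genes. Groups were taken from the labels, which do not say that the libraries of a group came from separate cultures, so p-values measure the spread between these libraries, which may be technical.

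The title suffix was used as a replicate block. Over the 12194 genes the R2 minus partner difference correlated between groups at r of 0.696 to 0.890 (median 0.811, 15 pairs of groups), so the suffix was taken to pair the libraries. Data were simulated on 12194 genes with 200 changed 2-fold for bortezomib in the control line. The R2 difference of each gene, as estimated in these data, was put into the simulated libraries, with noise from a fit with a block. The model without the block recovered 0 of 200, and with it 123 (61.5%), with 9 false calls. The gain with the block was therefore fixed beforehand and does not show that the block suits the deposited data. The named genes are the 10 members, the carriers called in all 3 lines and extremes, and the regulators always named or called. Members, lists and rules were chosen with earlier results of these data known. Comparisons of KO1 or KO2 with the control line in bortezomib and of KO1 with KO2, and alternatives run with the block kept, were added after seeing the data. Python 3.11.15, pandas 2.3.3 and matplotlib 3.10.9 were used for the other steps.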

Additional observations from a re-analysis of the deposited data

Results flagged for a closer look

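In vehicle, KO1 and KO2 differed from each other for 2 members in limma with the replicate block, a comparison chosen after the values were seen. SLC7A5 was lower in KO1 by a log2 difference of -0.70 (adjusted p 0.0427) and SLC1A5 by -0.71 (adjusted p 0.0390), each in both pairs of libraries. Of all genes tested, 1.59% were called lower in the same comparison and 3% in either direction. Without the block neither was called (adjusted p 1). Leaving out 1 library ended the SLC7A5 call in 10 of 12 fits and the SLC1A5 call in 8 of 12. Of 7 other alternatives 4 ended each call, the block with unnumbered libraries on the level of R1 included (adjusted p 0.0654 and 0.0648).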

How the results depend on the processing

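With 2 libraries a group, the replicate term decided most calls. The block by title suffix changed the count of members called from 0 to 3 for bortezomib in the control line, to 5 in KO1, to 4 in KO2, to 1 for KO1 against the control line in vehicle, to 2 for the same in bortezomib and to 2 for KO1 against KO2. When unnumbered libraries shared the level of R1 in the block, the counts became 2, 5, 4, 4, 3 and 0, with 2 for the mean of the knockout lines in vehicle and 3 in bortezomib. On the recovered reads, limma's voom with the block gave 3, 5, 5, 3, 3 and 3, with 2 for the mean in bortezomib. The block changed no other count of members called. Of 110 estimates for the members, the block changed the sign of 6, none of them called. For KO2 against the control line these were SLC1A5 in vehicle, from -0.14 to 0.046 (0.049 with voom), SLC7A11 in vehicle, from -0.02 to 0.08, and in bortezomib SLC3A2, from -0.06 to 0.05, and SLC6A9, from -0.06 to 0.18. For the mean of the knockout lines in bortezomib SLC6A9 went from -0.01 to 0.23 and SLC7A11 from -0.02 to 0.08. With the block and no filter on low values, 2 members were called for bortezomib in KO1 and 2 in KO2, and 0 for KO1 against the control line in either treatment and for KO1 against KO2. Rescaling to a common FPKM sum gave 3 for KO1 in vehicle. Quantile normalization and leaving out mitochondrial genes each gave 0 for KO1 in vehicle, 1 for KO1 in bortezomib and 0 for KO1 against KO2. The causes were not tested. For these other settings, and for the fits that leave out a library, the share of all genes called is not given here. Their counts therefore do not show whether the members changed more than genes at large. The calls of SLC7A1 and SLC1A4 with the block were kept in all 3 lines under all 19 alternatives, 12 of which left out 1 library, with adjusted p of at most 0.0220.

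Leaving out 1 library with the block kept gave 2 to 5 members for bortezomib in KO1 and in KO2, 0 for KO1 in vehicle whichever library was left out, 0 to 2 for KO1 in bortezomib, 0 to 1 for the mean in bortezomib and 0 to 3 for KO1 against KO2. The lone library of a group was taken to vary like the others. The count of 2 came without the R2 bortezomib library of KO1 and without either R1 library of KO2, and the 0 for KO1 in bortezomib without the R2 bortezomib library of the control line or of KO1. Without the block, leaving out 1 library mixes the R2 difference into the estimate. The range for bortezomib in control cells was then -0.31 to 0.34 for SLC7A11, -0.21 to 0.94 for SLC3A2, -0.30 to 0.53 for SLC7A6, -0.16 to 0.58 for SLC1A5, -0.062 to 0.79 for SLC38A1 and -0.46 to 0.77 for SLC38A2. In KO1 it was -0.28 to 0.68 for SLC7A11, -0.057 to 1.07 for SLC7A5, -0.34 to 0.42 for SLC7A6, -0.61 to 0.45 for SLC1A5, -0.30 to 0.57 for SLC38A1 and -0.51 to 0.40 for SLC38A2. In KO2 it was -0.39 to 0.57 for SLC7A11, -0.24 to 0.72 for SLC7A5, -0.055 to 0.68 for SLC7A6, -0.58 to 0.51 for SLC1A5 and -0.22 to 0.84 for SLC38A2. For KO2 against the control line in vehicle it was -0.66 to 0.19 for SLC3A2, -0.69 to 0.28 for SLC7A5, -1.24 to 0.10 for SLC1A4 and -0.68 to 0.41 for SLC1A5. For the interaction it was -0.63 to 0.11 for SLC1A5 and -0.20 to 0.95 for SLC3A2. The members had at least 353 reads in every library, and the part of depth in the calls was not tested.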
